A study of Mus musculus with 2 samples.

Results

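The plasminogen activator system and its neighbour, the tissue factor pathway, were followed as 7 listed genes, Plaur, Plau, Plat, Serpine2, Serpinb2, F3 and Tfpi, in mouse NIH 3T3 fibroblasts. A probe set was taken as a member when the platform annotation gave it exactly 1 gene symbol and that symbol was on the list. Of the 7 genes, 6 had such a probe set, 9 probe sets in all, out of 12393 genes named in this way. Serpine2 was named by no such probe set and was not analysed here. The list was chosen by the measured ratio of Plaur between these same 2 arrays, so the Plaur values below are a description and carry no test.

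The tested culture received a plasmid, pHA-CMV-ATCE1-C-del, for ATCE1 without its C terminus, which the submitters describe as the nuclear form. The control culture received the vector pHA-CMV with no insert. Both were NIH 3T3 cells, an established embryonic fibroblast line, transfected with Lipofectamine and harvested for total RNA 48 hours later, with 1 Affymetrix array for each. ATCE1 belongs to the CREB family of leucine zipper proteins, and its current gene symbol is Creb3l4. Its 1 probe set was no higher on the array labelled ATCE1-C-del, at 18.0 with ATCE1-C-del against 20.7 with empty vector, both under the floor used below, so these signals do not show the insert. Whether that probe set reads the truncated insert is not stated in the files, and ATCE1-C-del here names the array by its label, also wherever a direction is given. The insert was given to the cells from outside by lipid transfection, and the labels do not give the share of cells that took it up. An array of the whole culture therefore cannot tell a large change in some cells apart from a small change in all of them, nor fewer cells of a type apart from less RNA per cell. Because neither group was replicated (1 array each), no value has an error or a test, and differences were counted by their size alone.

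Plasminogen is a circulating zymogen that serine proteases cut into plasmin, which dissolves fibrin and degrades matrix proteins. Urokinase (Plau) acts mainly at the cell surface, bound to its lipid-anchored receptor (Plaur, also called uPAR), whereas tissue-type activator (Plat) acts mainly on fibrin. Serpins such as those encoded by Serpinb2 and Serpine2 trap the activators, and tissue factor (F3) starts the coagulation cascade that lays fibrin down, held back by its inhibitor Tfpi. In fibroblasts the receptor is known as a growth factor- and phorbol ester-inducible gene that concentrates proteolysis at the leading edge of moving cells.

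The promoters of the receptor gene and of the tissue factor gene are shown because both genes were measured on both arrays and both windows hold the AP-1 motif TGACTCA or its reverse complement TGAGTCA. Each window runs from 250 bases before to 50 bases after a RefSeq transcript start, in build GRCm38.p6, from the RefSeq promoter table, and capitals mark the AP-1 motif. The Plaur window is chr7:24462233-24462532 on the plus strand, and the F3 window is chr3:121723287-121723586 on the plus strand.
Plaur: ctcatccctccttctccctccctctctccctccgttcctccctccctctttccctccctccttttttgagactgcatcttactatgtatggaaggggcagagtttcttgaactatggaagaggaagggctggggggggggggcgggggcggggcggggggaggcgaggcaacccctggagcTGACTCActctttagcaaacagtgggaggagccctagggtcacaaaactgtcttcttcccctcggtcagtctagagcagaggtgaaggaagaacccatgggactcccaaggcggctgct
F3: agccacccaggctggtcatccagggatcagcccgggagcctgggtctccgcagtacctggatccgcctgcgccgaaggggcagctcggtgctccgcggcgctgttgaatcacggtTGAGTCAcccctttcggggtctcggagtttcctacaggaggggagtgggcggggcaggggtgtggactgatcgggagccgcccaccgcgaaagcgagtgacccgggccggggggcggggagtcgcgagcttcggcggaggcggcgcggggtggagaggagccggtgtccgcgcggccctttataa
In the Plaur window the motif began 69 bases before the start, and in the F3 window it began 135 bases before it. Of 32851 windows of the same length in the table, 5.20% held this motif on either strand. The cAMP response element TGACGTCA, which reads the same on both strands and to which CREB proteins bind, was in neither window, and was in 1.79% of all windows. Its shorter core TGACG, which also lies inside TGACGTCA, was in neither window on either strand, where 20.8% of all windows held it. The table held 7 windows for 5 of the listed genes, and the windows of Serpinb2, Tfpi and Serpine2 held none of these motifs. Plau and Plat were not in the table. A match in letters does not show that a factor binds, and its absence covers this window only.

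Values are MAS5 signals as Affymetrix software gives them, on a linear scale. After each array was scaled to the same trimmed mean, its median signal, 77.4 for ATCE1-C-del and 75.9 for empty vector, served as a floor to which lower signals were raised. A gene counted as measured if at least 1 array reached its floor, which held for 6807 of the 12393 named genes (54.9%). Of the 6 genes with a probe set, 3 were measured, Plaur, Plat and F3, all of them on both arrays, and 3 were under the floor on both, Plau, Serpinb2 and Tfpi.

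Plaur, the urokinase receptor, was with the reported scaling the one measured member with a higher signal on the ATCE1-C-del array. With the hybridisation controls as the scale, an alternative given below, Plat and F3 were also higher, at log2 ratios of 0.12 and 0.06. The single Plaur probe set, 1452521_a_at, read 164.6 with ATCE1-C-del against 82.2 with empty vector, a 2.002-fold difference (log2 ratio 1.002). This lies at the 2-fold line and not clearly past it, since the side depends on how the trimmed mean is taken. With tied values kept in that mean, the first form computed here, Plaur was 1.997-fold higher and under the line. The form reported, which drops 2% of probe sets at each end by rank as MAS5 scaling is defined, was adopted after both values were seen. The ATCE1-C-del signal was 2.13 times its floor, at percentile 62.7 of the probe sets on that array, whereas the empty vector signal was only 1.08 times its floor, at percentile 51.1. The ratio thus rests on a moderate signal set against one that barely cleared the floor. By the _a_at ending of its name, the probe set can read more than 1 transcript of the gene. The files do not say which splice forms of the receptor it reads.

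Plat, the tissue-type activator, had signals of 509.4 with ATCE1-C-del against 554.4 with empty vector. It was 1.09-fold lower with ATCE1-C-del, a log2 ratio of -0.12. F3, the tissue factor gene, had signals of 646.4 with ATCE1-C-del against 735.0 with empty vector. It was 1.14-fold lower with ATCE1-C-del, a log2 ratio of -0.19. Both genes stood well clear of the floor on both arrays, Plat at 6.58 times the floor with ATCE1-C-del and 7.30 times with empty vector, and F3 at 8.35 times with ATCE1-C-del and 9.68 times with empty vector. Neither was read by a second probe set.

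**Figure D1:**
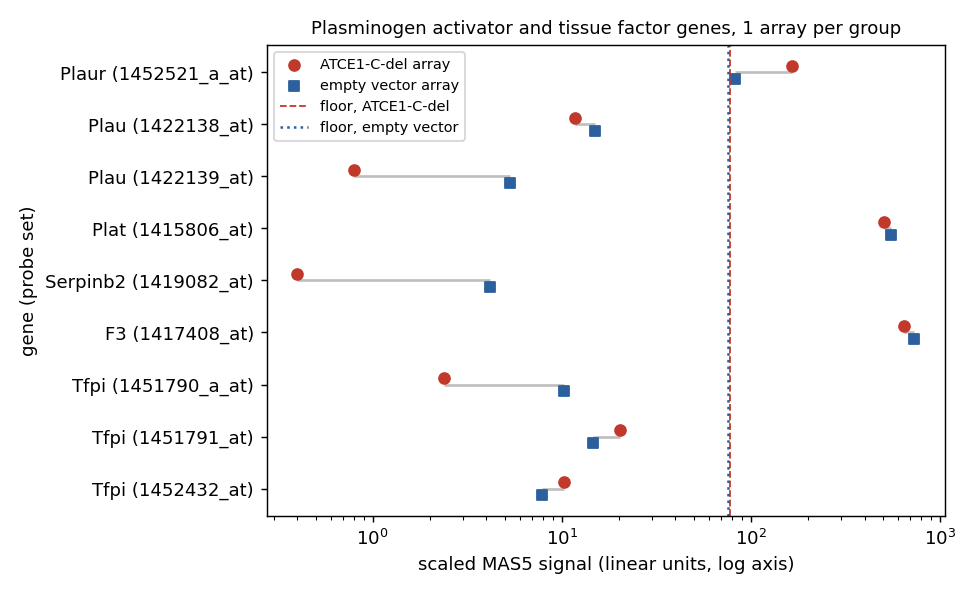
Scaled MAS5 signal (linear units on a log axis) of the 9 probe sets, with circles for the ATCE1-C-del array, squares for the empty vector array and vertical lines for the floor of each array. Plaur at 164.6 against 82.2, Plat and F3 lie to the right of the floors, and the other 6 probe sets lie to the left on both arrays.

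Plau, which encodes urokinase, the protease that the receptor binds, was under the floor on both of its probe sets. The first, 1422138_at, read 11.8 with ATCE1-C-del against 15.0 with empty vector, and the second, 1422139_at, read 0.8 with ATCE1-C-del against 5.3 with empty vector. Serpinb2, which encodes plasminogen activator inhibitor 2, read 0.4 with ATCE1-C-del against 4.2 with empty vector. These signals are at most 0.20 of the floor, so no fold is given.

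Tfpi, the inhibitor of the tissue factor pathway, was read by 3 probe sets, all under the floor and not all on the same side. Probe set 1451790_a_at read 2.4 with ATCE1-C-del against 10.3 with empty vector. Probe set 1451791_at read 20.4 with ATCE1-C-del against 14.6 with empty vector, and 1452432_at read 10.3 with ATCE1-C-del against 7.9 with empty vector. The 3 probe sets of this gene thus pointed both ways at signals no higher than 0.26 of the floor.

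At 1.5-fold, 1 of the 3 measured members was higher with ATCE1-C-del and 0 were lower, beside 0.94% of all measured genes higher and 1.07% lower. At 2-fold, 1 was higher and 0 were lower, beside 0.0735% of all measured genes higher (5 genes) and 0.0294% lower (2 genes). Plaur was listed for this ratio, so nothing is read from these counts, and with tied values kept in the trimmed mean 0 members passed 2-fold. Plaur lay at rank 5 of 6807 by log2 ratio, Plat at rank 4811 and F3 at rank 5383. Genes under the floor on 1 array entered this ranking at a bound of their ratio, so some placed below Plaur may differ more. In the ranking the values just inside 2-fold were Atf3 at 2.13 and Plaur at 2.002, and those just outside were E2f4 at 1.99 and Hspa1a at a lower bound of 1.99.

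The spread of other genes at like signals is the only yardstick on these arrays, and it describes them without being a test. Among 1304 genes measured on both arrays whose mean log2 signal lay within 0.5 of that of Plaur, the middle 95% of log2 ratios ran from -0.56 to 0.53, and 2 genes had a higher ratio than Plaur. Among 1326 genes near F3 in signal the range was -0.42 to 0.37, and among 1543 genes near Plat it was -0.47 to 0.38. F3 and Plat lay inside these ranges. The set near Plaur was cut by the floor, which both signals of a gene had to reach. A gene with a mean signal near the floor could therefore not show a ratio as large as that of Plaur. Genes under the floor on 1 array, such as Hspa1a at 150.9 with ATCE1-C-del against 8.5 with empty vector, were left out. This narrows the range near Plaur, so that range and the count of 2 genes do not show how unusual the Plaur ratio was. Across 2451 genes with a second probe set above both floors, the log2 ratio of 1 probe set carried an SD of 0.20 between probe sets of one gene. Differences from one culture, transfection or labelling to the next are not in that value. It covers genes at all signals above the floors and was not taken for those near Plaur alone.

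**Figure D2:**
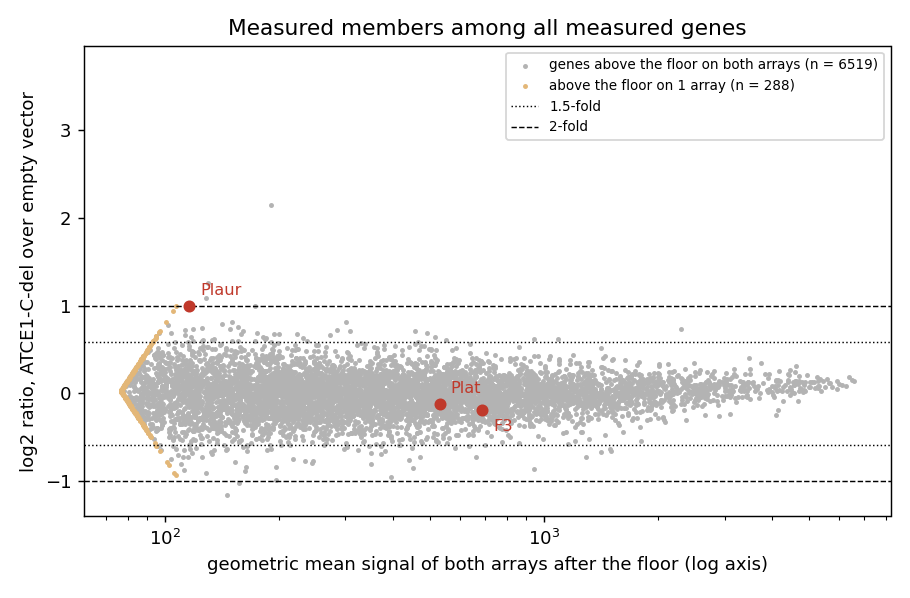
Log2 ratio (ATCE1-C-del over empty vector) against the geometric mean signal of both arrays after the floor (log axis), with 1 point per measured gene and lines at 1.5-fold and 2-fold. Plaur lies on the 2-fold line at low signal (log2 ratio 1.002), and Plat (-0.12) and F3 (-0.19) lie inside the cloud.

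By their ratio over the 2 arrays, the genes next to Plaur in the ranking were Ccl5, Gtse1 and Atf3 above it and E2f4, Hspa1a and Rpp21 below it. Ccl5, a chemokine gene, was 4.43-fold higher and Gtse1, a microtubule-associated cell cycle gene, was 2.39-fold higher. E2f4, a repressive E2F factor, read 243.8 with ATCE1-C-del against 122.6 with empty vector, 1.99-fold higher. Hspa1a, an inducible chaperone gene, was at least 1.99-fold higher at 150.9 with ATCE1-C-del against 8.5 with empty vector, the empty vector signal lying under the floor. Rpp21, a ribonuclease P subunit gene, was at least 1.91-fold higher at 145.1 with ATCE1-C-del against 75.7 with empty vector. A likeness over 2 arrays is only a like ratio.

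The counts of the wider lists are to be read beside those of all 6807 measured genes, of which 48.7% were higher with ATCE1-C-del, and 86.1% were when the arrays were scaled to the hybridisation controls. Past 1.5-fold, 0.94% of all measured genes were higher and 1.07% lower.

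The other genes of the plasminogen system were near level where they were measured. Of 16 listed, 13 had a probe set, 3 were measured, 0 passed 1.5-fold and 3 were lower with ATCE1-C-del (1 of 3 with the hybridisation controls as the scale), with a median log2 ratio of -0.10 beside -0.01 over all measured genes. Plgrkt, a plasminogen receptor of the cell surface, read 517.9 with ATCE1-C-del against 626.7 with empty vector, a log2 ratio of -0.28. The intracellular serpins Serpinb6a and Serpinb8 had log2 ratios of -0.10 and -0.06. Plg and Serpinf2 are named for their role. Plg, the zymogen made by the liver, read 1.0 with ATCE1-C-del against 0.8 with empty vector, and Serpinf2, which encodes the plasmin inhibitor, read 13.2 with ATCE1-C-del against 2.1 with empty vector, all under the floor.

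The serpin family as a whole, 30 genes with a probe set, had 6 measured members, of which 0 were higher and 6 lower with ATCE1-C-del, although 5 of the 6 were higher when the arrays were scaled to the hybridisation controls, where 86.1% of all measured genes were. With the reported scaling 48.7% of all measured genes were higher. The median log2 ratio was -0.08, and 0 passed 1.5-fold. Serpina3n, an acute phase serpin, had a log2 ratio of -0.35 and Serpinb9, a granzyme B inhibitor, one of -0.21. A second probe set of Serpinf1, chosen after its value was seen, went the other way, at 0.08 against -0.05 on the brighter one. In the Ly6 and uPAR domain family, the protein family of the urokinase receptor, 2 of 18 genes with a probe set were measured, Plaur and the complement regulator gene Cd59a. Cd59a read 98.7 with ATCE1-C-del against 125.3 with empty vector, a log2 ratio of -0.34, so that these genes lay on opposite sides.

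Partners of the urokinase receptor and the receptors that clear it lay on both sides of 0. Of 26 listed, 22 had a probe set and 16 were measured, 8 higher and 8 lower (12 and 4 with the hybridisation controls as the scale), and the median log2 ratio was -0.02. Past 1.5-fold there was 1 higher and 1 lower. Egfr, the epidermal growth factor receptor, was at least 1.51-fold higher, at 114.9 with ATCE1-C-del against 73.6 with empty vector, the empty vector signal lying under the floor. Vldlr, an endocytic receptor that takes up urokinase complexes, was 1.54-fold lower, at 97.4 with ATCE1-C-del against 149.8 with empty vector. Egfr and Vldlr each rest on 1 probe set, since their other probe sets lay under the floor on both arrays.

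Igf2r, which binds the urokinase receptor and plasminogen, was 1.49-fold lower on its brightest probe set and had a log2 ratio of -0.06 on the other. Mrc2, a collagen receptor that associates with the urokinase receptor, had a log2 ratio of -0.49, at 186.4 with ATCE1-C-del against 261.8 with empty vector, and its other probe set was at least 1.56-fold lower. Chosen after their values were seen, Lrp1, the main clearance receptor, had a log2 ratio of -0.20 (not past 1.5-fold, and above 0 with the hybridisation controls as the scale), whereas Anxa2 and S100a10, which together bind plasminogen and Plat at the surface, had log2 ratios of 0.09 and 0.17.

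Extracellular proteases and their inhibitors included 21 measured genes of 29 listed, 6 higher and 15 lower (15 and 6 with the hybridisation controls as the scale), with 0 past 1.5-fold in either direction and a median log2 ratio of -0.12. Timp1, an inhibitor of matrix metalloproteinases, was 1.34-fold higher, at 1118.8 with ATCE1-C-del against 835.6 with empty vector. Htra1, a secreted serine protease gene, was at least 1.44-fold higher. Adamts1, a proteoglycan-cleaving protease gene, was 1.41-fold lower and Mmp11 was 1.33-fold lower. Of all measured genes 48.7% were higher, and 86.1% were with the hybridisation controls as the scale, which moved the median of all measured genes to 0.24.

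Genes of coagulation and thrombin signalling, the surroundings of F3, had 9 measured of 27 listed, 6 higher and 3 lower (7 and 2 with the hybridisation controls as the scale), a median log2 ratio of 0.05 and 0 past 1.5-fold. Thbs1, which encodes thrombospondin 1, had a log2 ratio of 0.24 and 0.30 on its other probe set. Vkorc1 and Ggcx, enzymes of the vitamin K cycle that clotting factors depend on, had log2 ratios of -0.26 and at most -0.25, the ATCE1-C-del signal of Ggcx lying under the floor. Anxa5, an anticoagulant phospholipid-binding protein gene, had a log2 ratio of 0.13.

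Growth factors and matrix proteins on which plasmin acts had 14 measured of 23 listed, 4 higher and 10 lower (11 and 3 with the hybridisation controls as the scale), and the median log2 ratio was -0.12. Of these, 0 passed 1.5-fold as higher and 2 as lower, beside 0.94% and 1.07% of all measured genes. Tgfb2, a latent growth factor gene, was 1.56-fold lower, at 78.2 with ATCE1-C-del against 121.9 with empty vector, close to the floor. Another Tgfb2 probe set read 44.7 with ATCE1-C-del, under the floor, against 78.8 with empty vector, a log2 ratio of at most -0.02. The remaining Tgfb2 probe set lay under the floor on both arrays. Lamb1, a laminin chain gene, had a log2 ratio of -0.59 on its brightest probe set, with others at log2 ratios of -0.09 and 0.16. Hgf, which encodes a growth factor that urokinase-type proteases activate, was higher on both of its measured probe sets, at log2 ratios of 0.22 and 0.28, and Ltbp1, which anchors latent TGF-beta, had -0.29. Vegfa, an angiogenic growth factor gene named after its values were seen, had a log2 ratio of 0.13 on its brightest probe set, whereas its other one was 1.70-fold higher, at 337.3 with ATCE1-C-del against 198.8 with empty vector.

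Factors known to act on the Plau and Plaur promoters had 23 measured of 27 listed, 13 higher and 10 lower (20 and 3 with the hybridisation controls as the scale), and the median log2 ratio was 0.05. Of these, 3 passed 1.5-fold as higher and 0 as lower, beside 0.94% and 1.07% of all measured genes. Atf3, a stress-induced bZIP factor, read 187.9 with ATCE1-C-del against 88.1 with empty vector. The AP-1 subunit gene Fosl1 read 398.8 with ATCE1-C-del against 227.5 with empty vector, 1.75-fold higher, and a second probe set was at least 1.03-fold higher. Fos was at least 1.64-fold higher, at 124.7 with ATCE1-C-del against 53.5 with empty vector, and Egr1, a zinc finger factor, was 1.35-fold higher. These genes, like Plaur, were already known from these arrays when the list was drawn up.

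**Figure D3:**
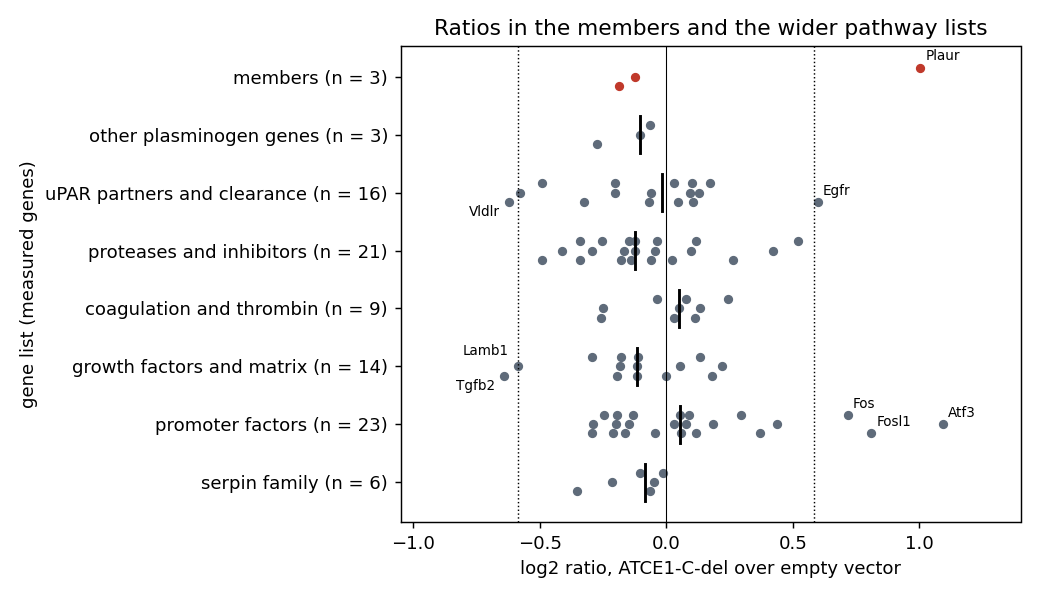
Log2 ratios of ATCE1-C-del over empty vector for the 3 measured members and for the measured genes of 7 wider lists, with 1 point per gene, black bars for the median of each wider list, dotted lines at 1.5-fold and names for genes past them. Plaur at 1.002 stands to the right of Plat and F3, and the 7 wider lists drawn have medians between -0.12 and 0.05. The Ly6 and uPAR domain family, with Plaur and Cd59a as its measured genes, is not drawn.

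The cell type of the cultures matched the label by its markers. Of 14 fibroblast markers with a probe set, 13 were measured, with a summed signal of 59199 with ATCE1-C-del against 59636 with empty vector. Endothelial cells and macrophages also make several members, and of their markers 0 of 10 and 2 of 12 were measured. Summed signals were 118.1 with ATCE1-C-del against 143.9 with empty vector for the endothelial list, and 410.7 with ATCE1-C-del against 337.9 with empty vector for the macrophage list, in which Cd14 and Cd68 were the measured genes. None of 11 epithelial markers was measured, with sums of 178.9 with ATCE1-C-del against 120.7 with empty vector, and 1 of 4 platelet-lineage markers was, Itga2b, with sums of 129.6 with ATCE1-C-del against 99.8 with empty vector. No marker was at 0 on either array, but a signal above 0 and under the floor does not show expression. The part of these cell types in the Plaur ratio was not tested.

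The log2 ratios of the measured members moved little with most processing choices. That of Plaur ran from 0.70 to 1.25 over the 11 alternatives in which it was measured, and stayed above 1.5-fold in all of them. Those of Plat and F3 stayed within 1.5-fold in all 13 alternatives and changed sign under scaling to the hybridisation controls, at 0.12 and 0.06. Several alternatives could not move these ratios. Each of the 3 genes had 1 probe set, above the reported floor on both arrays. A lower floor, no floor, or the mean or dimmest probe set therefore left its ratio unchanged by design. The deposited trimmed means were 250.1 on both arrays, so leaving values as deposited also changed almost nothing.

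**Figure D4:**
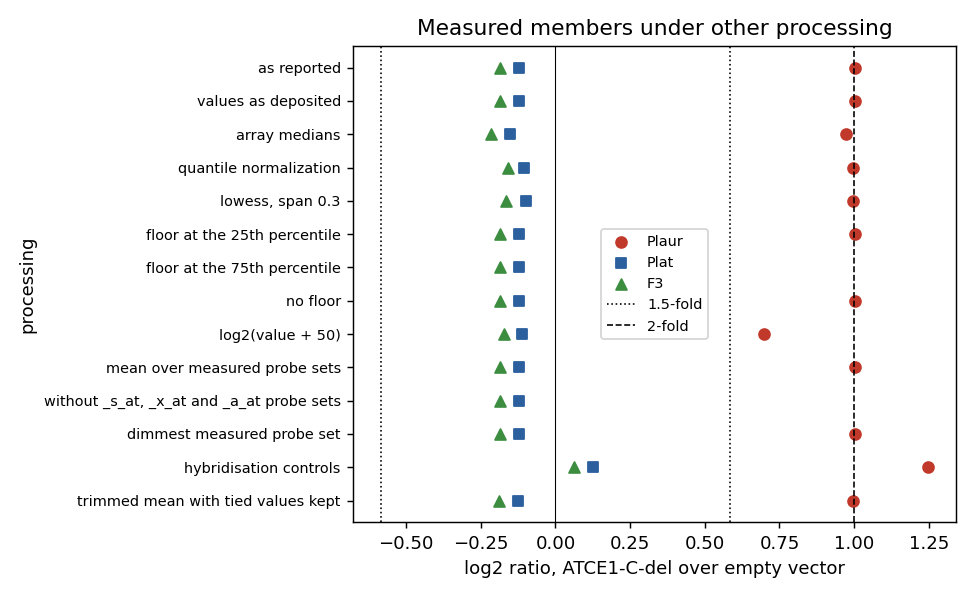
Log2 ratio (ATCE1-C-del over empty vector) for Plaur, Plat and F3 under the reported processing and 13 alternatives, with lines at 1.5-fold and 2-fold. Plaur clusters at the 2-fold line except with 50 added to each signal (0.70) and with the hybridisation controls as the scale (1.25), and has no point where it was not measured.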

How the data were processed

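The deposited values are array intensity, computed with MAS5 (no version named) per the submitters' processing notes. Its target value and calls are not stated. The deposited values already had nearly equal trimmed means, so the reported scaling left the Plaur log2 ratio at 1.002, as deposited. Each array held 22690 probe sets, of which 64 controls were used for scaling only. From the deposited signals, each array was divided by its mean after dropping 2% of probe sets at each end (250.1 on both), floored at its own median, and ATCE1-C-del was divided by empty vector on the log2 scale. A first version kept tied values in that mean. It was replaced after results were seen, and the change carries Plaur from 1.997-fold to 2.002-fold and the genes 2-fold higher from 4 to 5. For each gene the measured probe set brightest on average (mean log2) was used. Gene names came from the platform annotation, and 0 symbols changed against RefSeq (GRCm38.p6). The number of arrays limits the precision, and no test was possible. Changed means 1.5-fold, or 2-fold where stated. The members and all lists were chosen with earlier results of these arrays known. Named were all member probe sets, up to 4 genes per list by absolute ratio and the ranking neighbours of Plaur, with a few others marked where they appear. Alternatives covered scaling, floor, log scale and probe set choice. The procedure was run on simulated data whose changed genes were brighter than Plaur and changed more. That run does not bear on the Plaur ratio. Python 3.11.15, numpy 2.4.6, pandas 2.3.3, statsmodels 0.14.6 and matplotlib 3.10.9 were used.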

Additional observations from a re-analysis of the deposited data

How the results depend on the processing

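Scaling to the hybridisation controls was added after seeing the data. The trimmed mean with tied values kept was the first form computed, and the reported form took its place after seeing the data. No paired analysis was possible because each group had 1 array, and leaving out a replicate was not possible for the same reason. The log2 ratio of Plaur differed from the reported 1.002 by more than 0.20, the SD between probe sets of a gene, in 2 alternatives. These were 50 added to each signal (0.70) and the hybridisation controls as the scale (1.25). That SD is over genes of all signals above the floors and is not specific to the low signal of Plaur. The 3 measured members became 5 with the floor at the 25th percentile and 6 with no floor. The 1 member past 1.5-fold became 0 with the floor at the 75th percentile or without the probe sets ending in _s_at, _x_at and _a_at, which leave Plaur unmeasured, and 2 with no floor, where Serpinb2 (signals 0.4 and 4.2) joined it as lower. The 1 member past 2-fold became 0 under array medians (Plaur 1.96-fold), quantile normalization (1.997-fold), lowess (1.99-fold), 50 added to each signal (1.62-fold), tied values kept (1.997-fold), the 75th percentile floor and the removal of those probe sets, and 2 with no floor.

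Counts over all genes, given in order as higher and lower at 1.5-fold and then at 2-fold, were 64, 73, 5 and 2 as reported. They were 810, 284, 268 and 40 with the floor at the 25th percentile, 9, 19, 1 and 0 at the 75th, and 1916, 1026, 1140 and 585 with no floor. They were 408, 13, 14 and 0 with the hybridisation controls. With 50 added, 31 were higher and 30 lower at 1.5-fold and 0 lower at 2-fold. With the mean over probe sets, 47 were lower at 1.5-fold and 0 at 2-fold, and without the named endings 3 were higher at 2-fold.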
